A study of Homo sapiens with 6 samples.

Results

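The inhibitors of DNA binding (ID1, ID2, ID3 and ID4), the E proteins they bind (TCF3 and TCF12), the inhibitory SMADs of the bone morphogenetic protein (BMP) pathway (SMAD6 and SMAD7) and its signal-carrying SMADs (SMAD1 and SMAD5) were followed in leukemia cells with and without targeting of COX4I1. These 10 genes were taken by symbol from a table of 19845 gene symbols. ID1 was chosen because it rose in the comparison described here, so its values are a description and its p-value supports nothing.

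The cells were Molm13, a human acute myeloid leukemia line with a rearranged MLL gene, made to express the Cas9 nuclease. Both groups carried the same lentiviral guide vector, ipUSEPR, which holds a puromycin-resistance gene. The paper describes puromycin selection with this vector for its library screens. The 3 sgCtrl libraries held guides against sequences the cells do not need, and the 3 sgCOX4I1 libraries held guides against COX4I1, a subunit of cytochrome c oxidase (Complex IV of the respiratory chain). Each library came from a different guide in a pool of transduced cells of 1 cell line, so guide and culture cannot be told apart within a group, and the p-values measure the spread between these libraries. Neither the time after transduction nor the addition of any BMP ligand is given for these libraries in the sources used here.

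Libraries held from 17241014 to 30861943 counted reads, and a count of 0 allowed a level of up to 0.0972 to 0.174 CPM (a gene's count scaled by the library total and its TMM factor), from counting error alone. COX4I1 mRNA stood at 513, 501 and 462 CPM in sgCtrl #1, #2 and #3, compared with 132, 377 and 133 CPM in sgCOX4I1 #1, #2 and #3. The sgCOX4I1 #2 library thus kept 76.7% of the sgCtrl mean mRNA, against 26.7% in #1 and 27.0% in #3. The paper reports a reduction of COX4I1 protein by immunoblot with independent sgCOX4I1 guides. These libraries measure mRNA only, so the mRNA left in a library does not give its loss of protein. Over all 6 libraries the log2 fold change of COX4I1 was -1.21 ± 0.29 (SE; adjusted p = 0.0512 by edgeR). Myeloid leukemia markers were detected in every library, with all 10 of the listed genes tested and a summed level of 2143 to 2330 CPM in sgCtrl and 1877 to 2116 CPM in sgCOX4I1. Of these, MPO, a granule peroxidase, was lower in sgCOX4I1 (log2 fold change -1.06 ± 0.074, adjusted p = 1.6e-05). Summed T cell markers stayed at or below 0.174 CPM and erythroid markers at or below 0.0982 CPM. The fibroblast sum was 0.381 to 0.706 CPM in sgCtrl and 0.465 to 1.11 CPM in sgCOX4I1. CDH5 and KDR of endothelium and EPCAM and KRT19 of epithelium had 0 counts throughout, so the endothelial and epithelial sums (169 to 198 and 185 to 221 CPM, and 11.6 to 17.4 and 8.44 to 12.8 CPM, in sgCtrl and sgCOX4I1) came from other listed genes, chiefly PECAM1 and KRT18. The B cell sum of 18.5 to 20.8 CPM in sgCtrl and 21.2 to 24.7 CPM in sgCOX4I1 was mostly PAX5. The part of these marker levels in the results below was not tested.

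E proteins are basic helix-loop-helix transcription factors that pair with each other or with tissue-restricted partners and bind E-box DNA. ID proteins have the helix-loop-helix but no basic region, so an E protein paired with an ID protein cannot bind DNA. BMP ligands act through receptor kinases that phosphorylate SMAD1, SMAD5 and SMAD9, which join SMAD4 in the nucleus, and the ID genes are among the best known genes switched on there. SMAD6 and SMAD7 are induced by the same signalling family and hold it back, SMAD6 mainly on the BMP branch and SMAD7 on both the BMP and TGF-beta branches. In blood cells, ID1 and ID2 are known for their place in the balance between immature and differentiated states.

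All 10 genes have promoter windows in RefSeq on GRCh38.p14, reaching 250 bases before and 50 bases after the annotated start. Within these windows, SMAD6 alone among the members held the palindromic SMAD element GTCTAGAC, and bases outside them were not searched. The stretches ahead of the first annotated exon are given for ID1, the member chosen for its rise, and for SMAD6. Both are on the plus strand and read 5′ to 3′, and capitals mark GTCT on either strand, the core sequence bound by SMAD3 and SMAD4. The ID1 stretch is chr20:31605039-31605282 and the SMAD6 stretch is chr15:66701986-66702235.
ID1: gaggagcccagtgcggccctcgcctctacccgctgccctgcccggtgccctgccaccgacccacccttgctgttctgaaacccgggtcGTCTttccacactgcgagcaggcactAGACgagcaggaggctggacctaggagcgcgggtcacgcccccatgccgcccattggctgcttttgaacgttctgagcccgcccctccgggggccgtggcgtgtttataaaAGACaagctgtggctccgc
SMAD6: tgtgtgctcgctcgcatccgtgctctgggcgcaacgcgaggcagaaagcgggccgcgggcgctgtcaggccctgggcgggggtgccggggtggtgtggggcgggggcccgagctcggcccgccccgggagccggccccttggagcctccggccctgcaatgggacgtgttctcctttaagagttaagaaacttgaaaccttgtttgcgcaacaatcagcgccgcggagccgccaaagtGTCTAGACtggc

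The ID1 stretch held 3 copies of GTCT, a sequence found in 84% of the 35116 full windows, which are longer at 300 bases, and no GTCTAGAC. The SMAD6 stretch held 1 GTCTAGAC, which contains both of its copies of GTCT, against 0.202% of all windows. The BMP-type element GGCGCC, present in 19.2% of windows, was not in the windows of ID1, ID2 or SMAD6. Neither the C/EBP-ATF element TGATGCAA (0.866% of windows) nor the cyclic AMP element TGACGTCA (1.85%) was in the window of any member. The E-box CAGCTG (17.9% of windows) lay in the ID2 window and not in that of ID1, which held no CANNTG of any kind, a pattern present in 68.7% of windows. The ID2 window, from base 8681806, lies inside the gene as GENCODE annotates it, from base 8678845. Its first 48 bases lie ahead of an annotated exon, and the CAGCTG runs across that edge. Such matches describe the letters in a short window only.

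ID1 was higher in the sgCOX4I1 libraries, the rise for which it was chosen. In GRCh38 it occupies chromosome 20, bases 31605283 to 31606515, plus strand. It was counted 43, 57 and 32 times in sgCtrl #1, #2 and #3, and 136, 101 and 152 times in sgCOX4I1 #1, #2 and #3. These counts correspond to 2.34, 3.09 and 1.57 CPM in sgCtrl against 6.06, 5.87 and 4.86 CPM in sgCOX4I1. Every sgCOX4I1 library lay above every sgCtrl library, with the lowest sgCOX4I1 value, in #3, still above the highest sgCtrl value, in #2. The sgCOX4I1 #2 library, which kept most of its COX4I1 mRNA, had an ID1 level close to that of #1. The group means were 2.34 ± 0.761 and 5.59 ± 0.644 CPM (SD, n = 3 libraries each), a fitted log2 fold change of 1.26 ± 0.24 (SE). Because ID1 was picked for this rise, its rank is only descriptive. It stood 9th by fold change among the 16 genes (0.135% of those tested) that were at least 2-fold higher with an adjusted p under 0.05. At the 2-fold edge of that group, SLC26A11 lay just inside (log2 fold change 1.01) and APOC1 just outside (1.00). Leaving out sgCtrl #2 (log2 fold change 1.51) or sgCOX4I1 #2 (1.22) put ID1 outside the adjusted threshold.

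**Figure D1:**
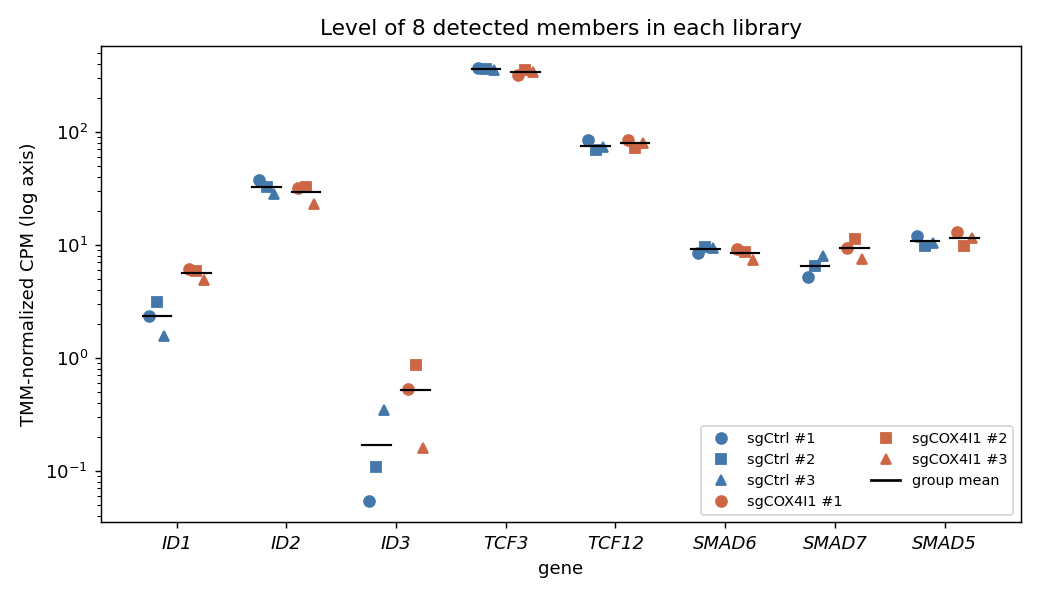
Each point is the TMM-normalized CPM (log axis) of 1 library, circles, squares and triangles standing for guides #1, #2 and #3, in blue for sgCtrl and orange for sgCOX4I1, with black lines at group means; ID4 and SMAD1, at 0 in all libraries, are not drawn. The 3 ID1 points of sgCOX4I1, from 4.86 to 6.06 CPM, lie above the sgCtrl points, from 1.57 to 3.09 CPM, whereas ID2, ID3, TCF12 and the SMAD points overlap between groups.

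ID2, the most abundant ID mRNA in these cells, occupies chromosome 2, bases 8678845 to 8684461, plus strand. It stood at 37.5, 32.8 and 28.1 CPM in sgCtrl #1, #2 and #3, compared with 31.9, 32.4 and 23.2 CPM in sgCOX4I1 #1, #2 and #3. The groups overlapped, and in both of them guide #3 gave the lowest level. The log2 fold change was -0.18 ± 0.14 (SE; 95% interval -0.47 to 0.12, adjusted p = 0.546), so a 2-fold rise of ID2 lies outside its interval. An antisense gene, ID2-AS1, covers 6.55% of the exonic bases of ID2, and the strand setting used for counting is not given in the sources used here.

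ID3 was close to the limit of detection. It was counted 1, 2 and 7 times in sgCtrl and 12, 15 and 5 times in sgCOX4I1, or 0.0545, 0.109 and 0.344 CPM against 0.534, 0.872 and 0.160 CPM. The sgCOX4I1 #3 library lay below sgCtrl #3, so the groups overlapped. The gene did not pass the filter on low counts, and in a fit without that filter (15168 genes) its log2 fold change was 1.47 ± 0.78 (SE; adjusted p = 0.387), so no difference was detectable at this depth. ID4, the member of the family expressed mainly outside blood, had 0 counts in all 6 libraries.

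Read as levels per kilobase of the canonical transcript, which allows genes to be compared within a library, ID2 made up most of the ID mRNA in both groups. ID2 stood at 25.3 ± 3.59 CPM per kilobase in sgCtrl and 22.5 ± 3.98 in sgCOX4I1 (SD, n = 3), and ID1 at 2.38 ± 0.774 and 5.69 ± 0.655. The share of ID1 in the summed level of ID1, ID2 and ID3 was 7.62%, 11.0% and 6.77% in sgCtrl #1, #2 and #3 and 19.7%, 18.7% and 21.5% in sgCOX4I1 #1, #2 and #3. The shares did not overlap between groups, nor did they with all annotated exonic bases as the length (8.96% to 14.4% and 23.8% to 27.1%). As ID1 was chosen for its rise, its higher share in sgCOX4I1 follows in part from that choice and carries no test. The sum of the family did not follow: it was 31.3, 28.5 and 23.6 CPM per kilobase in sgCtrl and 31.3, 31.8 and 23.0 in sgCOX4I1, and the ranges of the groups overlapped almost wholly. In both groups the lowest sum was that of guide #3.

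**Figure D2:**
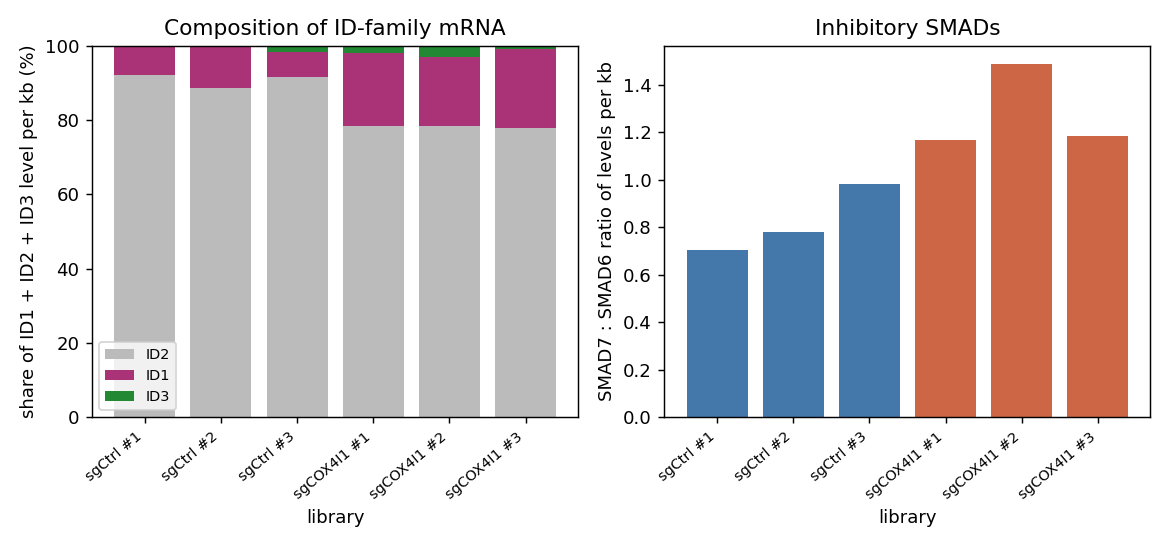
The left panel shows, for each library, the share (%) of ID1, ID2 and ID3 in their summed level per kilobase, and the right panel the ratio of the SMAD7 to the SMAD6 level per kilobase, with sgCtrl in blue and sgCOX4I1 in orange. The ID1 share is 6.77% to 11.0% in sgCtrl and 18.7% to 21.5% in sgCOX4I1, and the ratio is 0.702 to 0.983 in sgCtrl and 1.17 to 1.49 in sgCOX4I1. ID1 was chosen on this contrast, and neither the share nor the ratio carries a test.

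The summed level of the E protein mRNAs was above that of the ID mRNAs, through TCF3. TCF3, which encodes E12 and E47 and lies on the minus strand of chromosome 19 (1609291 to 1652615), stood at 371, 357 and 354 CPM in sgCtrl #1, #2 and #3, compared with 318, 351 and 339 CPM in sgCOX4I1 #1, #2 and #3. All 3 sgCOX4I1 values lay below all 3 sgCtrl values, but by little: the log2 fold change was -0.10 ± 0.073 (SE; 95% interval -0.26 to 0.054, adjusted p = 0.505). Such separation was common, since 21.6% of the 11861 genes tested had no overlap between groups, and 10.4% were lower in every sgCOX4I1 library. TCF12, which encodes HEB and lies on the plus strand of chromosome 15 (56918623 to 57299281), stood at 84.4, 69.8 and 73.0 CPM in the sgCtrl libraries and at 85.2, 71.4 and 80.5 CPM in the sgCOX4I1 ones. These values overlapped (log2 fold change 0.063 ± 0.092, SE; adjusted p = 0.776). The third E protein gene, TCF4, was between 0.933 and 1.57 CPM.

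TCF3 accounted for 82.7% to 86.7% of the summed E protein level per kilobase in the 6 libraries. The ratio of this sum to the ID sum was 2.95, 3.05 and 3.68 in sgCtrl #1, #2 and #3 and 2.60, 2.70 and 3.70 in sgCOX4I1 #1, #2 and #3. The groups overlapped, with guide #3 highest in each. Thus the libraries with more ID1 mRNA did not have a distinct ratio of E protein to ID mRNA, and ID2 and TCF3, the 2 most abundant genes of their families, dominated that ratio.

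Of the 6 other tested members, SMAD7 alone had an unadjusted p under 0.05. It occupies chromosome 18, bases 48919853 to 48950965, minus strand. It was counted 95, 120 and 163 times in sgCtrl #1, #2 and #3 and 211, 195 and 236 times in sgCOX4I1 #1, #2 and #3, which gave 5.18, 6.51 and 8.01 CPM against 9.40, 11.3 and 7.54 CPM. The groups overlapped, because sgCOX4I1 #3 lay below sgCtrl #3. The means were 6.56 ± 1.42 and 9.42 ± 1.89 CPM (SD, n = 3), and the log2 fold change was 0.50 ± 0.19 (SE; 95% interval 0.092 to 0.92). Its edgeR p of 0.0200 became 0.190 after adjustment, and 17.3% of all genes tested had an unadjusted p under 0.05, so no change of SMAD7 was called. Without sgCtrl #1 the log2 fold change was 0.36 and without sgCtrl #3 it was 0.68.

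SMAD6, on the plus strand of chromosome 15 (66702236 to 66782849), stood at 8.44, 9.55 and 9.33 CPM in the sgCtrl libraries and at 9.22, 8.72 and 7.29 CPM in the sgCOX4I1 ones. The values overlapped, and the log2 fold change was -0.12 ± 0.15 (SE; 95% interval -0.44 to 0.19, adjusted p = 0.719). As a description of the balance of the pair, the ratio of the SMAD7 to the SMAD6 level per kilobase was 0.702, 0.781 and 0.983 in sgCtrl #1, #2 and #3 and 1.17, 1.49 and 1.19 in sgCOX4I1 #1, #2 and #3. The ratios did not overlap between groups. Which gene of the pair is higher depends on the length used, since with all annotated exonic bases the ratio was 1.33 to 1.86 in sgCtrl and 2.21 to 2.82 in sgCOX4I1. The ratio was computed after both values were known and carries no test.

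Of the SMADs that carry the BMP signal, only SMAD5 was detected. It lies on the plus strand of chromosome 5 (136132845 to 136188747) and stood at 12.0, 9.77 and 10.5 CPM in the sgCtrl libraries and at 13.1, 9.82 and 11.5 CPM in the sgCOX4I1 ones, values that overlapped (log2 fold change 0.098 ± 0.14, SE; 95% interval -0.21 to 0.41, adjusted p = 0.776). Its exons overlap SMAD5-AS1 on the opposite strand over 6.75% of their bases. SMAD1 had 0 counts in all 6 libraries, and SMAD9 had at most 1. The level of SMAD5 was 1.39 to 1.87 CPM per kilobase, below the 4.24 to 5.01 CPM per kilobase of SMAD4, the shared partner, and the 4.31 to 5.94 CPM per kilobase of SMAD3, which carries TGF-beta and activin signals.

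Across the group, 7 of the 10 members passed the filter on low counts, and 1 of them, ID1, had an adjusted p under 0.05, against 2.08% of all genes tested in either direction, 1.06% in the upward and 1.02% in the downward direction. Since ID1 was chosen on this contrast, nothing is read from that count. The other 6 tested members were not called. The 7 tested log2 fold changes ran from -0.18 to 1.26 with a median of 0.063, and the median over all genes tested was -0.0023. Groups did not overlap for 2 of the 7, ID1 and TCF3, beside the 21.6% given above for all genes.

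**Figure D3:**
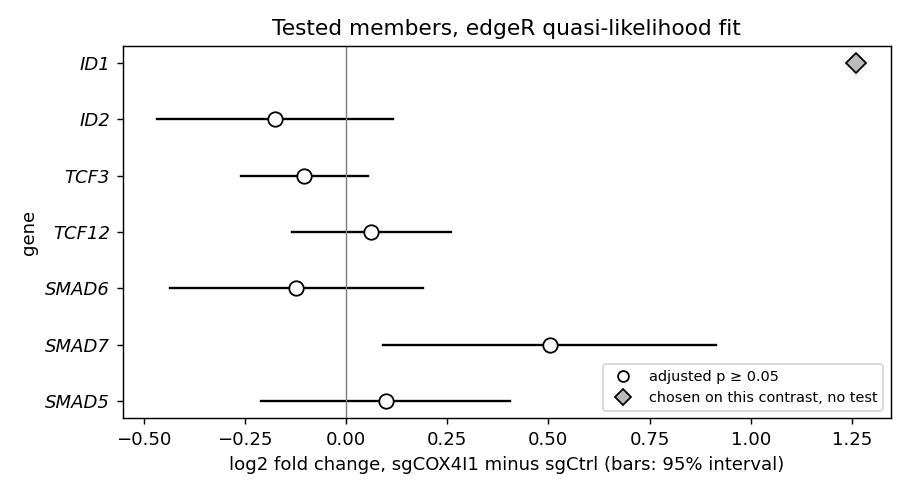
Points give the log2 fold change (sgCOX4I1 minus sgCtrl) of each tested member and bars its 95% interval from the fit across all genes; the grey diamond is ID1 at 1.26, chosen on this contrast and drawn without an interval. The interval of SMAD7 (0.092 to 0.92) lies above 0 with an adjusted p of 0.190, and those of ID2, TCF3, TCF12, SMAD6 and SMAD5 include 0.

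Among 30 ligands of the TGF-beta superfamily, 13 were tested. Their median log2 fold change was -0.24, with 4 above 0 and 9 below. At an adjusted p under 0.05, 1 was higher and 1 was lower, beside 1.06% and 1.02% of all genes tested. The higher one was INHBE, the beta subunit of activin E, at 1.31, 1.36 and 1.03 CPM in sgCtrl #1, #2 and #3, compared with 4.72, 2.73 and 2.84 CPM in sgCOX4I1 #1, #2 and #3. No sgCOX4I1 value fell into the sgCtrl range (log2 fold change 1.48 ± 0.29, SE; adjusted p = 0.0227). The log2 fold change was 1.55 without sgCtrl #2 (adjusted p = 0.147), 1.18 without sgCOX4I1 #1 and 1.61 without sgCOX4I1 #2 (adjusted p = 0.0618 for both), so the call was lost while the fold stayed above 2. The lower one was AMH, anti-Müllerian hormone, which signals through SMAD1 and SMAD5 in the gonads. AMH stood at 63.9, 78.6 and 61.6 CPM in the sgCtrl libraries and at 38.8, 42.5 and 44.1 CPM in the sgCOX4I1 ones (log2 fold change -0.70 ± 0.099, SE; adjusted p = 0.00296), and its receptor gene AMHR2 had 0 counts. AMH starts 667 bases past the end of SF3A2 on chromosome 19, a splicing factor gene at 230 to 273 CPM whose log2 fold change was -0.15 ± 0.079 (SE; adjusted p = 0.369), and the part of reads running on from that gene was not tested.

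The BMP ligands proper were not called. BMP2 stood at 8.61, 8.63 and 8.99 CPM in sgCtrl against 9.62, 9.01 and 9.14 CPM in sgCOX4I1 (adjusted p = 0.797), and BMP4 at 6.65, 6.24 and 5.70 CPM against 5.17, 4.47 and 5.08 CPM (adjusted p = 0.329); these were singled out after their values were seen, as the BMPs known to induce ID1 in many cells. The most abundant ligands besides AMH were TGFB1, at 241 to 262 CPM in sgCtrl and 189 to 242 CPM in sgCOX4I1 (log2 fold change -0.24 ± 0.090, SE; adjusted p = 0.188), and BMP8B, at 28.1 to 30.4 against 22.7 to 24.9 CPM (-0.29 ± 0.093, SE; adjusted p = 0.121). Both had an interval below 0 before adjustment. GDF15, a stress-responsive member of the superfamily singled out after its values were seen, had one above 0, at 3.65, 7.22 and 6.63 CPM in sgCtrl against 6.99, 16.6 and 9.69 CPM in sgCOX4I1. Its groups overlapped (log2 fold change 0.90 ± 0.29, SE; adjusted p = 0.126). GDF15 was called by edgeR without the filter on low counts (adjusted p = 0.0145) and without sgCOX4I1 #1 (0.0286). It was also called with the guide number as a replicate block (0.00139), a fit that called 1408 genes.

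The receptors included the parts of a BMP receptor complex. Of 18 receptors and co-receptors 10 were tested, none was called in either direction, and the median log2 fold change was -0.035. By level per kilobase the BMP type I receptor BMPR1A stood at 2.35 to 3.11, ACVR1 at 1.56 to 2.24, ACVRL1 at 0.582 to 0.913 and the type II receptor BMPR2 at 1.63 to 1.88, whereas BMPR1B had 0 counts. The TGF-beta type I receptor TGFBR1 was highest at 19.7 to 25.8, followed by the co-receptor endoglin, ENG, at 16.6 to 19.3. Between groups, the log2 fold changes were 0.10 ± 0.10 for TGFBR1, -0.017 ± 0.084 for ENG and -0.053 ± 0.10 for BMPR2 (SE), with adjusted p-values from 0.660 to 0.946.

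Among the other SMADs, 3 of 4 were tested and none was called. SMAD2, which carries TGF-beta signals, had a log2 fold change of -0.0078 ± 0.077, SMAD4 of -0.00087 ± 0.088 and SMAD3 of 0.13 ± 0.11 (SE), with adjusted p-values from 0.610 to 0.997. Of 28 antagonists and brakes of the pathway, 16 were tested, none was called, and the median log2 fold change was -0.038. Its 3 most abundant genes were FKBP1A, which encodes the FKBP12 protein that keeps type I receptors silent (-0.016 ± 0.071), the corepressor SKI (-0.035 ± 0.12) and TOB1, a repressor of BMP-SMAD transcription (-0.054 ± 0.081; SE).

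No other SMAD target gene was called. Of 26 listed, 18 were tested, 6 had a log2 fold change above 0 and 12 below, and the median was -0.042. Groups did not overlap for 5 of the 18, beside 21.6% of all genes tested. In the lists above, this held for 5 of 13 tested ligands, 2 of 10 receptors, 1 of 16 antagonists and none of the other SMADs. CDKN1A, the p21 cell cycle inhibitor, stood at 397, 414 and 412 CPM in sgCtrl against 431, 551 and 492 CPM in sgCOX4I1, values that did not overlap (log2 fold change 0.27 ± 0.089, SE; adjusted p = 0.139), and without sgCOX4I1 #1 its adjusted p was 0.0445. GADD45B, a stress-induced partner of p38 signalling, stood at 70.8, 78.1 and 71.1 CPM against 68.8, 56.7 and 55.1 CPM (-0.28 ± 0.093, SE; adjusted p = 0.132), with 0.0369 without sgCOX4I1 #1. The immediate early factor JUNB had a log2 fold change of 0.0058 ± 0.069 (SE; adjusted p = 0.980). HES1, a helix-loop-helix repressor better known as a Notch target and singled out after its values were seen, stood at 9.32, 11.1 and 10.7 CPM in sgCtrl against 15.5, 17.1 and 12.9 CPM in sgCOX4I1. Its groups did not overlap and its log2 fold change was 0.54 ± 0.14 (SE; adjusted p = 0.0605), while DESeq2 gave an adjusted p of 0.0223 and edgeR without the filter on low counts one of 0.0198. With the guide number as a replicate block, edgeR called HES1, CDKN1A and GADD45B (adjusted p = 0.00904, 0.00941 and 0.0185) among 1408 genes.

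**Figure D4:**
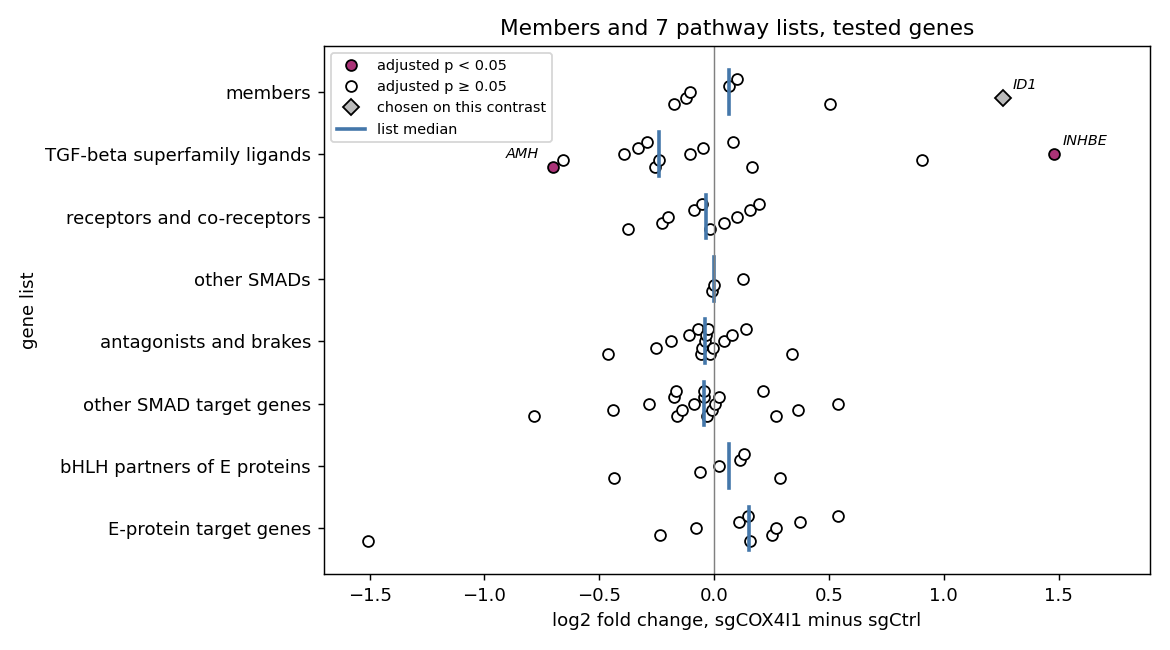
Each circle is the log2 fold change (sgCOX4I1 minus sgCtrl) of 1 tested gene, grouped by list and spread vertically only to avoid overlap; filled circles have an adjusted p under 0.05, the grey diamond is ID1, chosen on this contrast, and blue bars are list medians. ID1 at 1.26 and INHBE at 1.48 are to the right and AMH at -0.70 to the left, and no gene of the receptor, SMAD, antagonist, target or partner lists is filled.

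No partner or target gene of the E proteins was called. Of 26 partners with which E proteins pair, 14 had 0 counts in all 6 libraries and 6 were tested, of which none was called and the median log2 fold change was 0.067. The 3 most abundant were TWIST1, a factor best known from mesoderm, at 153 ± 16.6 CPM in sgCtrl and 147 ± 8.94 CPM in sgCOX4I1, LYL1, a blood stem cell factor, at 107 ± 5.25 and 108 ± 9.06 CPM, and MSC at 13.2 ± 2.68 and 14.5 ± 4.91 CPM (SD, n = 3). Their adjusted p-values were 0.766, 0.931 and 0.818. Of 20 E protein target genes, 10 were tested and none was called. Groups did not overlap for 4 of the 10, beside 21.6% of all genes tested and none of the 6 tested partners. Of the 10 targets, 7 had a log2 fold change above 0 and 3 below, with a median of 0.15. By mean over the 6 libraries, the most abundant besides CDKN1A were GFI1, a myeloid repressor (log2 fold change -0.079 ± 0.079, SE; adjusted p = 0.658), and NOTCH1 (0.16 ± 0.13, SE; adjusted p = 0.575). ETS2, an ETS family factor, was close behind NOTCH1 and above it in each sgCtrl library, at 151, 144 and 142 CPM against 125, 131 and 115 CPM in sgCOX4I1, with no overlap (-0.24 ± 0.075, SE; adjusted p = 0.120). EBF1, a B cell factor activated by E proteins, had the lowest value of this list at -1.51 ± 0.56 (SE; adjusted p = 0.182), on levels of 0.872, 0.760 and 0.835 CPM in sgCtrl against 0.0445, 0.581 and 0.288 CPM in sgCOX4I1. The sgCOX4I1 #1 value rests on 1 count and lies under the 0.134 CPM that a count of 0 allowed in that library. ETS2 and EBF1 were singled out after their values were seen, and CDKN1A and HES1 belong to both target lists.

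To see which genes followed the level of ID1 over the libraries, log2 CPM was centred on the mean of each gene over the 6 libraries and compared with that of ID1 by the root mean square distance. The nearest of all genes tested were ADM2, a secreted peptide of the adrenomedullin family, at 0.212, KCNG1, a potassium channel subunit, at 0.254, CHAC1, an enzyme that breaks down glutathione, at 0.259, SLC6A9, a glycine transporter, at 0.263, and PDYN, the precursor of dynorphin peptides, at 0.267. ADM2 stood at 7.25, 7.17 and 5.80 CPM in sgCtrl #1, #2 and #3, compared with 14.7, 15.2 and 13.2 CPM in sgCOX4I1 #1, #2 and #3. CHAC1 stood at 3.27, 3.15 and 2.75 CPM against 8.99, 8.31 and 8.63 CPM. Like ID1, both were lowest in sgCtrl #3 and had no overlap between groups. The choice by likeness to ID1 fixes the direction of these genes, so no test of them is given.

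Of the 6 other tested members, SMAD7 was the nearest, at a distance of 0.559 and rank 534 among the genes tested, and ID2 the farthest at 0.758 and rank 8462. TCF3 and SMAD6 had ranks 7924 and 7925, next to each other and both with log2 fold changes below 0. Within sgCtrl, ID1 was highest in #2 and lowest in #3, while SMAD7 was highest in #3 and lowest in #1.

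**Figure D5:**
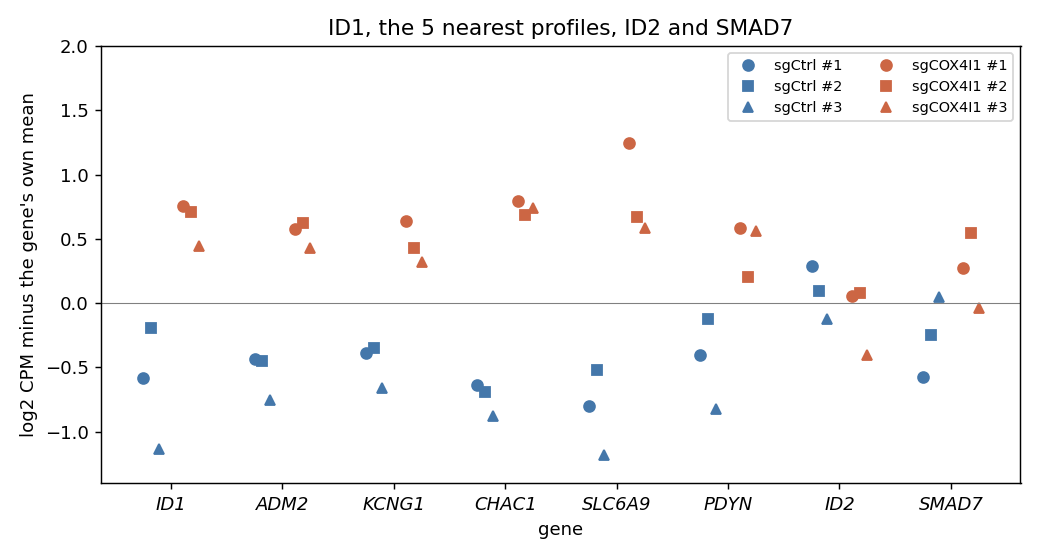
For each gene the log2 CPM of the 6 libraries is shown after subtraction of the mean of that gene, with circles, squares and triangles for guides #1, #2 and #3, blue for sgCtrl and orange for sgCOX4I1. The 5 nearest genes, chosen for likeness to ID1, keep the groups apart as that choice favours, while ID2 and SMAD7 points of the groups overlap. ID1 spans -1.13 to 0.75 and ID2 -0.40 to 0.29.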

How the data were processed

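Total RNA from 6 Molm13-Cas9 libraries, 3 sgCtrl and 3 sgCOX4I1, was made into directional mRNA libraries. The authors deposited raw counts per gene symbol, without normalization. The submitters' processing notes name bcl2fastq 2.20.0.422, STAR 2.6.0a, edgeR and GRCh38, and the column names point to marked duplicates and HTSeq, whereas the methods describe trimming, Bowtie2 and RSEM, so the route to these counts is uncertain. Columns C and K with their number were matched to sgCtrl and sgCOX4I1 guides.

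In R 4.3.3, edgeR 4.0.16 (TMM, its expression filter, quasi-likelihood test, no covariates) was fitted to 11861 genes with Benjamini-Hochberg adjustment, with calls at an adjusted p under 0.05. The methods add a 2-fold limit, used here only where stated. SE is the log2 fold change over the root of F. Centred log2 CPM used a prior count of 2. Between replicates, chi-square per degree of freedom was 11.0 to 27.6, so each library counted once. With 3 against 3, an exact permutation test cannot go below 0.1. The fit was tested on simulated data.

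Members and lists were chosen with earlier results of these data known. Named genes are the members, COX4I1, the called and up to 3 most abundant tested genes of each of 7 lists written from general knowledge, and the 5 nearest ID1 profiles. GTCTAGAC, the shares and ratios per kilobase, HES1, BMP2, BMP4, GDF15, ETS2, EBF1, TCF4, and the genes named only as markers, as receptor levels or as neighbours of another gene were added after values were seen, as was the use of all exonic bases as the length. Positions, canonical transcript lengths and overlaps are from GENCODE 44, whose transcript for SMAD2 is unusually long, so its level per kilobase is not given. Alternatives were DESeq2 1.42.0, no TMM, upper quartile scaling, no filter, a minimum of 10 counts per library, limma-voom (limma 3.58.1), a replicate block, and each library left out.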

Additional observations from a re-analysis of the deposited data

How the results depend on the processing

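The number of genes called among all tested was 247, and 456 by DESeq2, 537 without the filter on low counts and 24 to 561 with 1 library left out, 24 without sgCtrl #2 and 561 without sgCtrl #1. With 1 library left out, 0 to 1 members were called and the log2 fold change of ID1, chosen on this contrast, was 1.03 to 1.51. Called genes with 1 library left out were 1 to 2 ligands, 0 to 2 other SMAD targets (GADD45B and CDKN1A without sgCOX4I1 #1), 0 to 1 partners (SCX without sgCtrl #1) and 0 to 1 E protein targets. DESeq2 and the fit without the filter each called 1 SMAD target that is also 1 E protein target, HES1. Whether libraries of the same guide number were handled together is not given in the sources used here. Deviations from group means correlated at 0.38, -0.024 and 0.29 between groups for #1, #2 and #3. For pairs of different number they correlated at -0.38 to 0.13. The part of any shared handling was not tested. With the guide number as a replicate block, 1408 genes were called (SMAD7 adjusted p = 0.0723). They held 5 ligands (AMH, INHBE, GDF15, TGFB1 and BMP8B) and 1 antagonist (TGIF2). The 3 other SMAD targets called were HES1, GADD45B and CDKN1A, and the 3 E protein targets were HES1, CDKN1A and ETS2. Among the genes named by rule, signs turned only where the main log2 fold change lay from -0.062 (TWIST1) to 0.11 (MSC). MSC was at -0.18 without sgCOX4I1 #2. Without TMM SMAD2 was 0.0058 and SMAD4 0.012, and SMAD4 was 0.0031 without the filter. With 1 library left out, the ranges were -0.00097 to 0.19 for SMAD5, -0.060 to 0.047 for ENG, -0.048 to 0.066 for LYL1, -0.035 to 0.041 for SMAD2, -0.050 to 0.077 for SMAD4, -0.14 to 0.018 for TWIST1, -0.038 to 0.026 for FKBP1A, -0.023 to 0.038 for JUNB, -0.13 to 0.093 for SKI, -0.087 to 0.012 for BMPR2 and -0.18 to 0.29 for MSC. The causes were not tested. Depth limits the reading of ID3, at 1 to 15 counts per library. ID4 and SMAD1 had 0 counts in all 6 libraries, which allows levels of up to 0.0972 to 0.174 CPM.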
